A study of Caenorhabditis elegans with 4 samples.

Results

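The 329 RNA polymerase II (Pol II) peaks that were 5 kb or wider in third-stage (L3) larvae of the nematode Caenorhabditis elegans are described here, out of 5942 peaks in all. They were chosen by their measured width alone, taken as last base minus first base plus 1, in a single peak list of genome build WormBase WS180. They made up 5.54% of the listed peaks and held 2700 kb, which was 33.8% of all bases covered by listed peaks. The 1689 peaks from 1 kb to just under 5 kb, 28.4% of the list, are set beside them as the class of 1 to 5 kb and held 3700 kb, or 46.3% of the covered bases.

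Chromatin precipitated for Pol II was sequenced beside input DNA, with 2 libraries of each kind from 2 numbered extractions. The Pol II group was made with 8WG16, a mouse monoclonal antibody to the heptapeptide repeat at the C-terminal end of the largest Pol II subunit, and the input group is chromatin that was not precipitated. Both groups came from L3 hermaphrodites of strain OP26, which has the mutation unc-119(ed3) on chromosome III and the transgene wgIs26. The transgene was brought in by bombardment and holds a rescuing copy, unc-119(+), and a tagged copy of mab-5, a Hox gene of the posterior body, written mab-5::TY1::EGFP::3xFLAG. All libraries of both groups therefore carry the host's mutation, its rescue and the extra mab-5. Worms were raised on HB101 bacteria in S-basal liquid culture at 20 °C and crosslinked with 2% formaldehyde. The protocol text shared by the samples instead speaks of an anti-GFP serum and of embryos, and the sample descriptions were followed here. The list combines the libraries and names no genes. No value below therefore has an error between replicates, the depth is unknown, and stage and target could not be checked on marker genes. No gene annotation or genome sequence of build WS180 was used here, so peaks are named by position.

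As background, Pol II bound to DNA is caught by crosslinking wherever the enzyme starts, pauses or elongates. At a weakly used gene the enriched stretch is often a short one near the start of transcription, whereas at a heavily transcribed gene it can run over the whole transcribed length. Genes of C. elegans are short and closely packed, and many lie in operons, groups of neighbouring genes transcribed together from one promoter, so that a single enriched stretch can span more than one gene. On the autosomes, the central regions are rich in genes that are conserved and broadly expressed, and the arms hold more repeats and recombine more.

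The width limit cut through a continuous range. The narrowest broad peaks were IV:11898888-11903906 with 5019 bp, I:529450-534475 with 5026 bp and II:4489823-4494851 with 5029 bp, and their q-values were 6.30e-250, 9.22e-240 and 1.90e-15. The widest peaks left out were V:9729492-9734479 with 4988 bp, X:4960141-4965127 with 4987 bp and IV:16166704-16171684 with 4981 bp, and their q-values were 3.00e-242, 9.76e-279 and 5.89e-153. A q-value is the p-value of the peak caller after correction for multiple regions, and peaks on both sides of the limit reached very small ones.

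Broad peaks had a median width of 7060 bp, with quartiles of 5885 and 9761 bp. There were 77 of 10 kb or more, 13 of 15 kb or more and 4 of 20 kb or more. The widest was V:14828205-14851660, with 23456 bp, followed by X:11464320-11486408 with 22089 bp. The widest peaks of the other chromosomes were II:3952228-3973037 with 20810 bp, IV:5650577-5667906 with 17330 bp, III:4491055-4506521 with 15467 bp and I:12565150-12576601 with 11452 bp. The widest peak of chromosome I was thus narrower than that of any other chromosome. It was also the single peak of 10 kb or more on that chromosome, against 12 on II, 13 on III, 16 on IV, 19 on V and 16 on X. The bases were spread over many members: the 33 widest peaks held 19.2% of the bases in broad peaks and the 82 widest held 39.1%.

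Chromosome I had few broad peaks although it had the most peaks. It held 27 broad peaks among 2178 listed peaks, or 1.24%. Chromosomes II to V held 57, 58, 63 and 69, and X held 55. These numbers were 7.99%, 6.44%, 6.91%, 10.9% and 9.09% of the peaks listed on II, III, IV, V and X. In covered bases, broad peaks held 11.1% on I against 39.7% on II, 37.4% on III, 35.3% on IV, 46.1% on V and 40.6% on X. The share of the peaks of 1 to 5 kb lay between 42.1% and 50.4% on the 6 chromosomes, so the chromosomes differed less in the bases of that class than in those of the broad class.

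**Figure D1:**
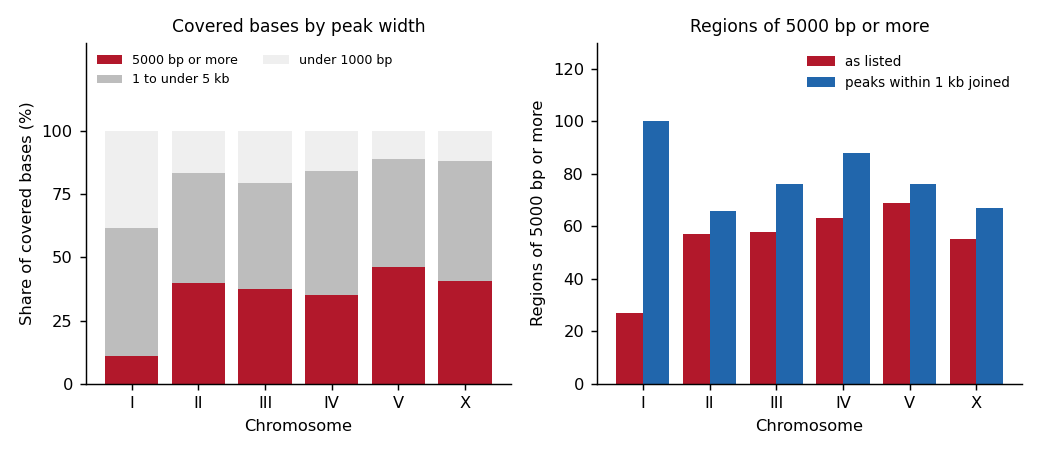
Left, share of the covered bases in percent by peak width on each chromosome, as stacked bars; right, number of regions of 5000 bp or more as listed (red) and after peaks within 1 kb of each other were joined (blue). Broad peaks hold 11.1% of the covered bases on chromosome I and 35.3% to 46.1% on the others, and joining takes chromosome I from 27 regions to 100.

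How many regions pass 5 kb depended on how the list divides neighbouring peaks. When peaks within 1 kb of each other were joined, 473 regions reached 5 kb, and 156 of them contained no peak that was broad on its own. Chromosome I held 76 of these 156, and its number of regions of 5 kb or more went from 27 to 100. The other chromosomes went from 57 to 66 on II, from 58 to 76 on III, from 63 to 88 on IV, from 69 to 76 on V and from 55 to 67 on X. With joining, chromosome I had the highest number of wide regions, and without it the lowest. Among the joined regions, 317 held a broad peak and 12 of those held 2.

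Broad peaks lay along all 6 chromosomes, in centres and in arms. The centre was taken as the central 50% of the stretch from base 1 to the last listed base of each chromosome. It held the midpoints of 199 of the 329 broad peaks, or 60.5% (95% Wilson interval 55.1 to 65.6), where 63.1% of all listed peaks lie there. Among peaks of 1 to 5 kb the share was 62.7% (60.4 to 65.0). These intervals cover the counting of peaks only, and they overlapped. By chromosome, the broad share was highest on V, at 72.5%, and on III, at 69.0%. It was 55.6% on I, 54.4% on II, 54.0% on IV and 52.7% on X. In the narrower class it was 75.6% on V, 61.4% on III, 59.5% on I, 66.2% on II, 61.9% on IV and 54.3% on X. Broad peaks were thus the less central class on 5 of the 6 chromosomes, with III as the exception. Broad peaks held 33.0% of the covered bases in the centres and 35.0% of those in the arms.

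**Figure D2:**
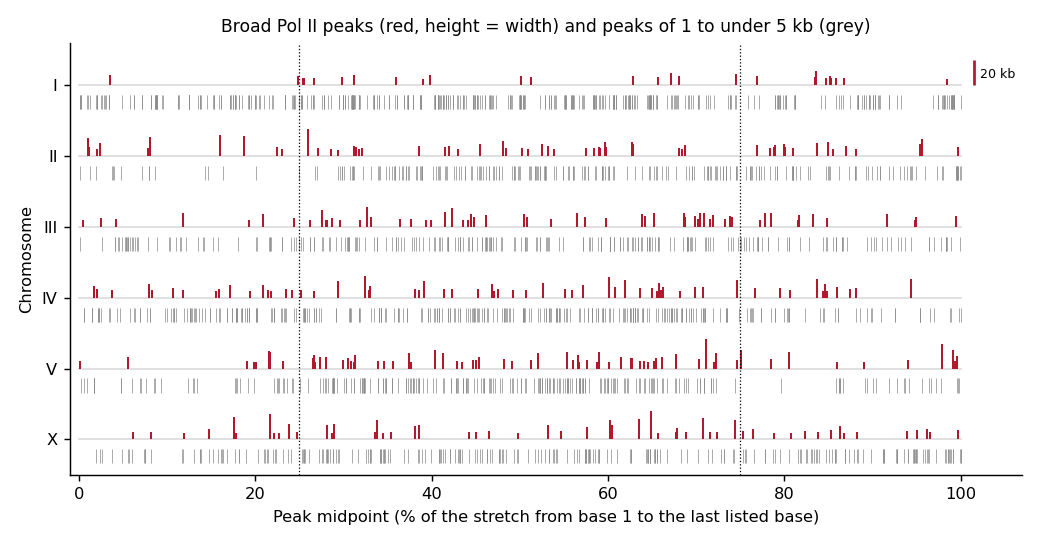
Midpoints of the 329 broad peaks (red, height proportional to width, 20 kb bar at the right) and of the 1689 peaks of 1 to 5 kb (grey) on each chromosome, as a percent of the stretch from base 1 to the last listed base; dotted lines bound the central 50%. Broad peaks occur on both sides of the lines on all 6 chromosomes, with 199 inside and 130 outside.

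Within the centres the classes differed in where they lay. The inner 33.3% of each chromosome held 122 broad peaks, or 37.1% (32.0 to 42.4), and 765 peaks of 1 to 5 kb, or 45.3% (42.9 to 47.7), where 46.0% of all listed peaks lie there. The broad share was the lower one on all 6 chromosomes: 25.9% against 42.9% on I, 35.1% against 48.7% on II, 34.5% against 43.1% on III, 38.1% against 45.0% on IV, 47.8% against 55.0% on V and 32.7% against 39.2% on X. With each chromosome cut into 10 equal bins, broad peaks numbered 22, 16, 45, 37, 33, 36, 46, 38, 37 and 19. The peaks of 1 to 5 kb numbered 121, 120, 159, 201, 241, 236, 217, 134, 118 and 142. The narrower class was most numerous in the 2 bins around the middle. Broad peaks were most numerous in the third and the seventh bin. They were fewest in the 2 bins at the left end and the last one at the right end. As a share of all peaks of 1 kb or more, they went from 11.8% in the second and the last bin to 23.9% in the ninth.

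Counted in full windows of 1 Mb, broad peaks were 3.28 ± 1.87 per window (mean ± SD over 97 windows), and the variance was 1.07 times the mean. Broad peaks held a median of 35.3% of the covered bases of a window. The most, 8, were found in III:9000001-10000000, where they held 53.2% of the covered bases, and in V:13000001-14000000, where they held 58.3%. No listed broad peak had its midpoint in 6 windows. On chromosome I these were I:1000001-2000000, I:2000001-3000000, I:6000001-7000000 and I:8000001-9000000, which held 132, 140, 187 and 200 listed peaks, so they were full of narrower peaks. The windows V:2000001-3000000 and X:1-1000000 held 5 and 13 listed peaks and were sparse in peaks of any width. Across the 97 windows, Spearman's rho between the numbers of broad peaks and of peaks of 1 to 5 kb was 0.11, and across the 82 windows of the chromosomes other than I it was 0.42. The windows come from the same pooled libraries and neighbouring windows are not independent.

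Neighbouring broad peaks of the list were far apart. The q-values imply that 95 regions of higher rank are missing from the list, so all distances here are between listed peaks. From the end of a broad peak to the start of the next one on its chromosome, the median distance over 323 gaps was 177 kb (95% order-statistic interval 155 to 207), with quartiles of 74.5 and 399 kb. The median was 181 kb on I, 140 kb on II, 159 kb on III, 203 kb on IV, 166 kb on V and 232 kb on X. It was 158 kb after broad peaks of the centres and 210 kb after those of the arms. A gap contained a median of 8 other peaks, with quartiles of 2 and 19, and 35 gaps contained none. The median gap of chromosome I was within the range of the others although it held fewer broad peaks, and its gaps were uneven: 4 of the 5 longest stretches without a broad peak lay there.

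The longest of these stretches ran for 3189571 bp, from the peak ending at I:542985 to the one starting at I:3732557. The next ran for 2818318 bp on V, from base 1159041 to base 3977360. The other 3 on chromosome I were 1760461, 1730238 and 1539304 bp long. Both kinds of sparse stretch seen in the windows recur here, since the long stretch of V lies in a region poor in peaks and those of I include regions dense with narrow ones.

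Most broad peaks were not part of a tight group. How many such groups the density of broad peaks alone would give was not tested. Another broad peak lay within 5 kb of 30 members (9.12%), within 20 kb of 53 (16.1%), within 50 kb of 111 (33.7%) and within 100 kb of 174 (52.9%). Linking broad peaks with gaps of at most 20 kb left 276 alone and gave 25 pairs and 1 group of 3, V:5523213-5581252, which spanned 58040 bp. No group of 4 or more was formed.

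In 15 pairs the neighbouring broad peaks were at most 5 kb apart, and in 11 of them at most 1 kb. Chromosome II had 4 such pairs, I, III and V had 3 each, IV had 2 and X had none. The closest were I:12812752-12826121 with a gap of 207 bp, V:16354502-16368073 with 217 bp, IV:5746659-5762343 with 224 bp, II:9114897-9132920 with 250 bp and III:3862950-3874260 with 307 bp. No gap in the whole list was shorter than 200 bp, so these pairs lay near the smallest distance the list holds. The peaks of a pair could differ widely in their values. In the pair on V, −log10 of the q-value, which grows with the statistical strength of a peak, was 4.15 in the left peak and 54.5 in the right one. In the pair on I it was 100.2 and 164.5. Over the 15 pairs, the larger value was a median of 2.06 times the smaller, with a range from 1.11 to 15.4 times, and both peaks reached a q-value of 1e-20 in 10 pairs.

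Broad peaks had fewer close neighbours of any width than peaks of 1 to 5 kb. This contrast, and those in flanked and isolated shares below, depend on how the list divides neighbouring peaks. A stretch listed as several close peaks gives narrower peaks with neighbours, and the same stretch listed as 1 peak can give a broad one. How much of the contrast comes from this was not tested. The median distance to the nearest listed peak was 4373 bp (3144 to 5927), with quartiles of 775 and 14380 bp, against 1474 bp (1252 to 1663) with quartiles of 380 and 5828 bp in the narrower class. On chromosome I the order was the other way round, with 330 bp for broad peaks and 427 bp for the narrower class. The medians for broad and narrower peaks were 3668 and 2183 bp on II, 2881 and 1650 bp on III, 4762 and 1666 bp on IV, 6213 and 3964 bp on V, and 8743 and 3889 bp on X. Over the chromosomes other than I, they were 5143 and 2439 bp.

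**Figure D3:**
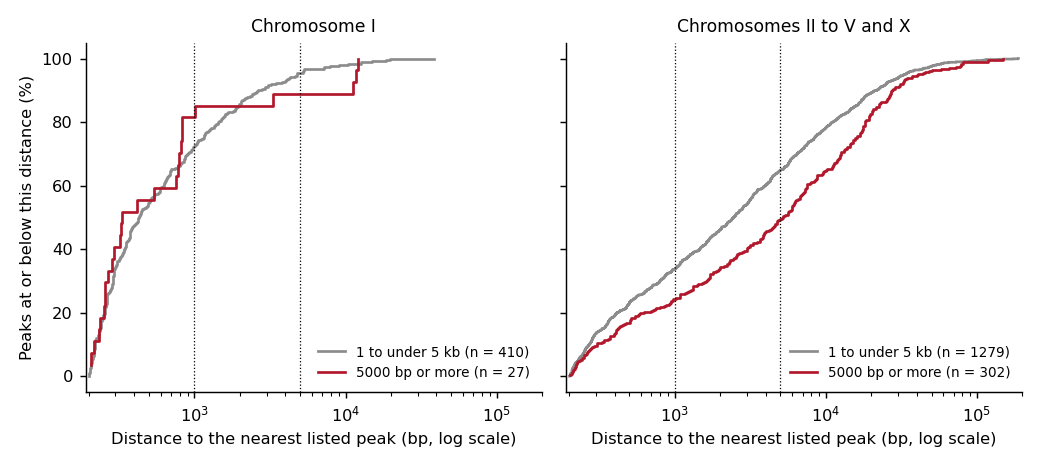
Share of peaks in percent that have another listed peak at or below a given distance (bp, log axis), for broad peaks (red) and peaks of 1 to 5 kb (grey), on chromosome I (left) and on chromosomes II to V and X (right); dotted lines mark 1 kb and 5 kb. On the right the red curve runs below the grey one at both marked distances, with medians of 5143 and 2439 bp. On chromosome I it is above the grey one at 1 kb, with 81.5% against 72.4%, and below it at 5 kb, where 11.1% of broad and 4.39% of narrower peaks have no neighbour.

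A peak was called flanked when another listed peak lay within 1 kb of either edge and isolated when none lay within 5 kb. By these limits, 96 broad peaks were flanked, 155 were isolated and 78 lay between. Flanked peaks were 29.2% of the broad class (24.5 to 34.3), where 39.0% of all listed peaks are flanked, and 43.2% (40.8 to 45.5) of the peaks of 1 to 5 kb. Of all listed peaks, 56.3% are flanked on chromosome I and 29.0% over the other chromosomes. When the narrower class was weighted to the chromosomes of the broad peaks, its share was 36.5%. Close peaks on both sides were found for 10 broad peaks, or 3.04%, where 8.89% of all listed peaks have them, against 10.3% of the narrower class. This share was much higher on chromosome I, at 24.4% of the narrower class there. Of all listed peaks it was 17.5% on I and 3.88% over the other chromosomes. Most of the 10 broad peaks with close peaks on both sides also lay on I. The shares of such peaks over the whole list were not weighted by chromosome. On chromosome I, 22 of the 27 broad peaks were flanked, which is 81.5% against 72.4% of the narrower peaks there. That difference of 9.04 percentage points had an interval of -9.59 to 20.3, so its sign is not settled by 27 peaks. On the other 5 chromosomes the broad share was the lower one: 31.6% against 37.3% on II, 31.0% against 40.2% on III, 33.3% against 39.9% on IV, 13.0% against 24.4% on V and 14.5% against 25.3% on X. Of all listed peaks, 29.9% were flanked on II, 33.3% on III, 33.2% on IV, 21.0% on V and 23.6% on X. Set against these, the broad share was lower on III, V and X, alike on IV and higher on II. The difference between the broad and the narrower class was -13.98 percentage points over the whole list. Without chromosome I the shares of these classes were 24.5% and 33.8%.

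Isolated peaks were 47.1% of the broad class (41.8 to 52.5), where 27.9% of all listed peaks are isolated, and 27.7% (25.6 to 29.9) of the narrower class. Of all listed peaks, 9.78% are isolated on chromosome I and 38.3% over the other chromosomes. Weighted to the chromosomes of the broad peaks, the narrower class reached 33.2%. The broad share was the higher one on all 6 chromosomes. It was 70.9% against 45.3% on X, 49.2% against 27.4% on IV, 45.6% against 36.0% on II, 52.2% against 45.0% on V, 34.5% against 24.8% on III and, from 3 peaks only, 11.1% against 4.39% on I. X thus combined the highest share of isolated broad peaks with the longest median gap between them. For all listed peaks too, X had the highest isolated share, at 52.2%, and the longest median distance to the nearest peak, at 5236 bp. The isolated share of all listed peaks was 46.4% on V, 39.4% on II, 31.9% on IV and 29.0% on III. On each chromosome it was below the broad share.

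**Figure D4:**
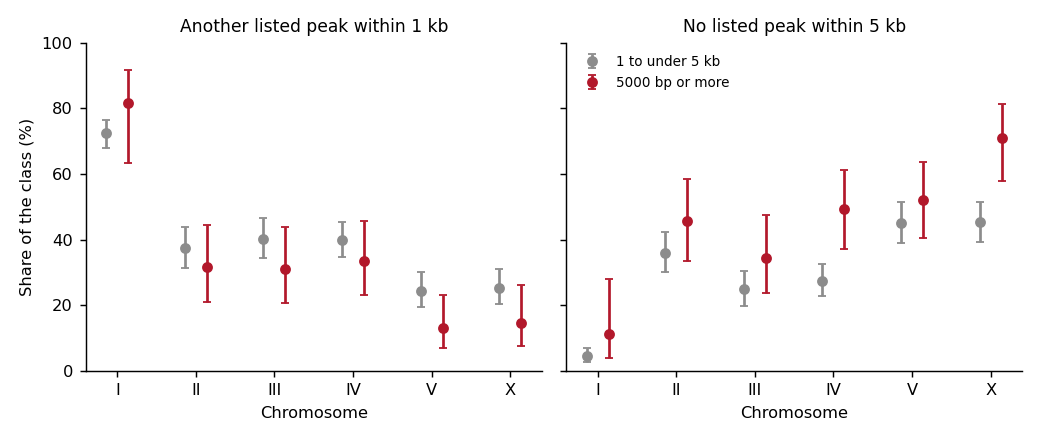
Share in percent of the peaks of each class with another listed peak within 1 kb (left) and with none within 5 kb (right), by chromosome, with 95% Wilson intervals as bars, for peaks of 1 to 5 kb (grey) and of 5000 bp or more (red). Broad peaks are the more isolated class on all 6 chromosomes, with 70.9% against 45.3% on X, and the more flanked class on I alone, with 81.5% against 72.4%. That difference on I is 9.04 percentage points, with an interval of -9.59 to 20.3.

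The wider surroundings of broad peaks also held fewer peaks. In the 20 kb on each side of a broad peak there were 2.68 other peaks on average, and around a peak of 1 to 5 kb there were 4.33. Around 53 broad peaks, or 16.1%, these flanks held no listed peak at all, against 8.23% of the narrower class. None of the 27 broad peaks of chromosome I stood alone in this way, and on V the order turned, with 15.9% of broad and 18.2% of narrower peaks. Without the dense chromosome I, the means were 2.19 and 2.85 peaks. Other peaks covered 9.20% of the flanks of broad peaks and 12.6% of those of the narrower class. These 2 shares include chromosome I, which weighs more in the narrower class. It held 410 of the 1689 narrower peaks, with 18.7% of their flanks covered, but only 27 broad peaks. On II the shares were close and the order turned, at 10.7% for broad and 10.5% for narrower peaks.

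The 5 broad peaks farthest from any other listed peak were all away from chromosome I. IV:16482408-16497265, with 14858 bp and a q-value of 1.00e-206, had its nearest neighbour 149499 bp away. For IV:15269570-15276185, II:3952228-3973037, V:15651560-15666300 and II:3430361-3437430 the distances were 118985, 117818, 81047 and 80567 bp. II:3952228-3973037 is also the widest listed peak of its chromosome, so the most extended Pol II peak listed on II stood alone among the listed peaks.

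Isolation was not even over the widths. The isolated share was 47.4% among the 97 peaks of 5 to 6 kb and 52.3% among the 65 of 6 to 7 kb. It was then 30.2% among the 43 peaks of 7 to 8 kb and 31.9% among the 47 of 8 to 10 kb, and 56.3% among the 64 of 10 to 15 kb. Of the 13 peaks of 15 kb or more it was 84.6%, a share that rests on few peaks. Below the limit, the share went from 26.4% at 1 to 2 kb to 32.7% at 4 to 5 kb. The share therefore had no steady course with width inside the broad class, and without chromosome I the dip at 7 to 10 kb was still there, at 37.1% and 33.3%.

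Neighbours that flanked broad peaks were wider and had smaller q-values than the typical listed peak. That most of them were narrower than the broad peak beside them follows from the choice by width, and nothing is read from it. The 96 flanked peaks had 106 flanked sides, and the neighbour there had a median width of 1647 bp and a median −log10 q of 9.48, against 611 bp and 6.74 over all listed peaks. It was under 200 bp wide on 15 sides, 200 bp to under 1 kb on 33, 1 to 5 kb on 36 and itself broad on 22. Those 22 sides come from the 11 pairs of broad peaks within 1 kb, each counted from both sides. They enter the medians, which are set against all listed peaks and not against neighbours of the narrower class. On 19 sides, or 17.9%, the neighbour had the larger −log10 q. For the 903 flanked sides of the narrower class, the neighbour was the stronger one on 32.1% and broad on 3.99%. Broad peaks had the larger −log10 q themselves, with a median of 61.2 against 18.1. A neighbour could thus less often exceed them, and nothing is read from this contrast in strength.

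Column 6 of the list, the q-value, covered almost its whole range within the broad class. It comes from the same calls as the width, so the values that follow are a description and nothing is read from them. The median −log10 q was 61.2 (50.7 to 74.9), with quartiles of 26.8 and 138.2 and extremes of 2.39 and 303.7. Peaks of 1 to 5 kb had a median of 18.1, quartiles of 7.31 and 41.5 and extremes of 2.00 and 305.7. Of the broad peaks, 265 had a q-value no larger than 1e-20, or 80.5% (75.9 to 84.5), where 21.8% of all listed peaks do, and in the narrower class there were 787 such peaks, or 46.6%. Being broad did not ensure a small q-value: 64 broad peaks had a −log10 q under 20, 31 had one under 10 and 10 had one under 5.

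The broad peaks with the smallest q-values were IV:13388415-13395692 at 2.00e-304, V:1149683-1159041 at 7.84e-303, V:5838454-5847514 at 1.73e-300, III:4491055-4506521 at 1.90e-299 and V:11528987-11542024 at 1.87e-297. The next were II:7391860-7398055 at 1.26e-289, V:12294938-12307797 at 1.98e-285, I:9440114-9447275 at 2.05e-283, III:13066857-13074826 at 5.87e-274 and IV:3644547-3654558 at 3.75e-271. They were 6196 to 15467 bp wide, and X was the only chromosome with none among the 10. The q-values of the deposited list imply that 95 regions ranked above its first peak, and those are not analysed here. The smallest values are thus those of this list alone. The positions and widths of the 95 regions are not in the list. Gaps, flanked and isolated shares, empty windows and stretches without a broad peak thus also hold for listed peaks only. So do the shares of covered bases and the ranks by width. If all 95 were broad, the class would hold 424 of 6037 peaks, or 7.02%.

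At the other end, V:20558-26742, with 6185 bp close to the left end of V, had a q-value of 0.0041. II:13066611-13071877 and X:16796466-16804075 followed at 0.00318 and 0.00281, and IV:358665-365747 at 0.000667. The remaining 6 of the 10 lay between 0.000114 and 1.79e-05, and all were on IV, V and X. Of these 6, X:9408275-9419298 was 11024 bp wide, while V:5523213-5531535 and V:5575844-5581252 were the outer members of the group of 3 on V. The 10 weakest were 5173 to 11024 bp wide, so their widths overlapped with those of the 10 strongest.

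**Figure D5:**
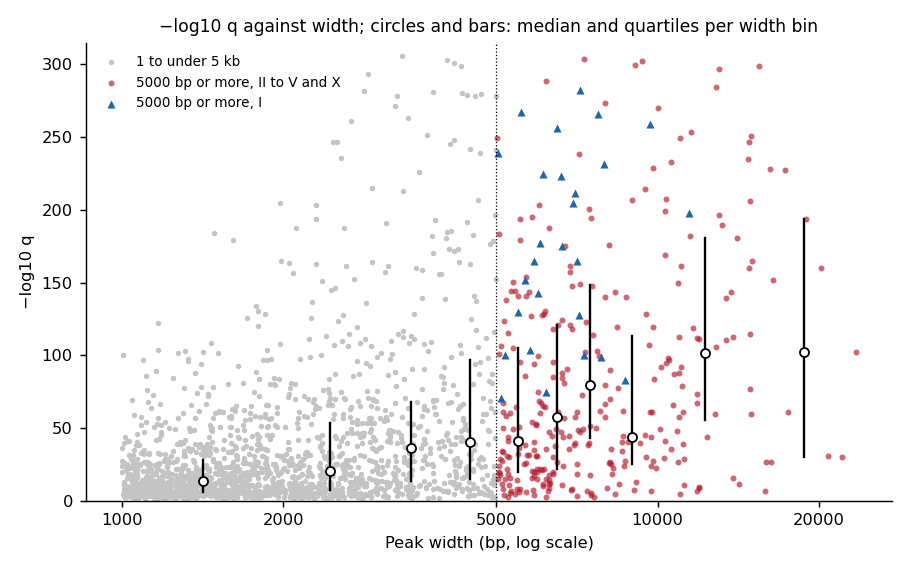
−log10 q of each peak of 1 kb or more against its width (bp, log axis), for peaks of 1 to 5 kb (grey), broad peaks of chromosomes II to V and X (red) and broad peaks of I (blue triangles); open circles and bars are the median and quartiles of each width bin, and the dotted line is the limit of 5000 bp. The broad peaks spread from 2.39 to 303.7 and those of chromosome I lie at 70.6 or above.

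Within the broad class, width and −log10 q were loosely related. Spearman's rho over the 329 peaks was 0.23, and over the 1689 narrower peaks it was 0.31. By chromosome it was highest on IV, at 0.45, and on V, at 0.37, and it was 0.26 on II, 0.18 on I, 0.16 on III and 0.06 on X. All peaks share the pooled libraries, and both values of a peak come from the same call. The median −log10 q was 40.2 among the 159 peaks of 4 to 5 kb just below the limit, 57.6 at 6 to 7 kb, 44.2 at 8 to 10 kb and 101.9 at 10 to 15 kb. The quartiles at 5 to 6 kb, 19.7 and 105.2, overlapped those at 10 to 15 kb, 55.7 and 180.8.

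Among peaks of 1 kb or more, chromosome I stood out in q-values too. All 27 of its broad peaks reached 1e-20, and their −log10 q ran from 70.6 to 282.7 with a median of 175.1. The medians elsewhere were 49.6 on II, 95.9 on III, 44.8 on IV, 50.3 on V and 40.1 on X, and the highest value on X was 183.5. The narrower class had the same extremes, with a median of 43.97 on I, 9.04 on X and 12.7 to 16.9 on the others. Broad peaks of the centres had a median of 67.1 and those of the arms 50.1.

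The order of flanked and isolated broad peaks in median −log10 q depended on chromosome I. The medians were 89.9 for flanked, 46.5 for intermediate and 58.4 for isolated peaks, and their median widths were alike at 7037 bp for flanked and 6931 bp for isolated peaks. Chromosome I supplied 22 of the 96 flanked peaks and 3 of the 155 isolated ones. Without it, the medians were 55.9, 45.2 and 57.7, and the flanked peaks no longer had the higher value. On chromosome I alone they were 158.0 for the flanked and 198.2 for the 3 isolated peaks.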

How the data were processed

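The authors deposited one peak list that combines the 4 libraries. Peaks were called with PeakSeq on build WS180, per the file headers and its source field; for the aligner, the read filters and the caller's version, the sources used here give no entry. The deposited values are a q-value per peak and the first and last base, counted from 1, which are the positions as deposited. No read counts come with it, so the depth of each library is unknown. Widths, gaps, midpoints and −log10 q were computed with Python 3.11.15, numpy 2.4.6, pandas 2.3.3 and scipy 1.17.1, and drawn with matplotlib 3.10.9. Shares have 95% Wilson intervals and medians 95% binomial order-statistic intervals, which cover the counting of peaks only. Ranks above the first listed peak were inferred from ties in q-value times rank. No test was made, because the list pools all libraries and peaks are not replicates. The measures were tested on simulated data. Members, classes and measures were chosen with earlier results of these data known. Peaks are named by fixed rules: widest per chromosome, smallest and largest q-value, those next to the width limit, closest and farthest neighbours, and windows with most and fewest broad peaks.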

Additional observations from a re-analysis of the deposited data

How the results depend on the processing

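Of 85 alternative values, 64 stayed within the counting interval of the reported value, 18 moved further and 3 changed sign. For the share of covered bases, the bases of 1 peak are not independent, so the interval width of the share of broad peaks among peaks of 1 kb or more was used; by the much narrower interval over single bases, all its alternatives moved. The share of covered bases in broad peaks (33.8%) was 42.6% with a width limit of 4000 bp, 17.9% with 8000 bp, 47.0% after peaks within 1 kb were joined, 39.7% without chromosome I and 31.4% without V, and it was 32.7%, 33.1%, 33.4% and 32.6% without II, III, IV and X. The median gap between broad peaks (177204 bp) was 126263 bp with a limit of 4000 bp, 510704 bp with 8000 bp and 131626 bp after joining. These settings change the number of regions kept, and joining also changes their extent. In the inner 33.3% in place of the central 50% of a chromosome, the broad share was 37.1%, and the difference from peaks of 1 to 5 kb was -8.21 in place of -2.21 percentage points. The flanked share (29.2%) was 20.1%, 38.6% and 52.9% with flank limits of 500 bp, 2 kb and 5 kb, 21.8% with a width limit of 8000 bp and 24.5% without chromosome I. Its difference from the narrower class (-13.98 percentage points) was -7.31 when weighted by chromosome and -19.4 with a flank limit of 5 kb. On chromosome I alone it was 9.04 (interval -9.59 to 20.3). The median −log10 q (61.2) was 81.1 with a width limit of 8000 bp. The difference in median −log10 q between flanked and isolated broad peaks was 31.5 (interval -3.08 to 58.0). It was -1.79 (-16.5 to 38.1) without chromosome I and -40.2 (-122.1 to 29.7) on chromosome I alone. Both values for chromosome I alone were chosen after seeing the data, and the cause of the changes was not tested. No paired analysis was possible because all 4 libraries enter each listed value together and no listed value belongs to 1 extraction. Leaving out a replicate could not be done either. Depth and variation between extractions cannot be read from the list.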
